A study of Homo sapiens with 4 samples.

Results

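The keratins are the intermediate filament proteins of epithelial cells. Their genes were followed here in AGS, an established human gastric adenocarcinoma line, on 4 single-channel expression arrays. A gene was counted as a member if the platform annotation mapped at least 1 probe set to that symbol alone, written KRT, a number and, where present, a letter from A to C. This gave 56 probe sets for 44 keratin genes among the 19775 genes measured, and a gene with several was represented by the one with the highest 4-array mean. Of the 55 protein-coding keratin genes in the RefSeq gene table, the other 11, namely KRT6A, KRT6B, KRT6C, KRT17, KRT26, KRT28, KRT34, KRT39, KRT81, KRT82 and KRT86, were not analysed here. Untreated cells (2 arrays) received fresh medium and LPS-treated cells (2 arrays) received medium with 10 µg/ml lipopolysaccharide of Helicobacter pylori, both for 8 h in serum-containing culture. The design text speaks of 2 independent experiments. All 4 arrays come from 1 line, so the values describe that line only.

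Keratins are obligate heteropolymers: an acidic type I chain pairs with a basic type II chain, and the dimers assemble into filaments. Simple, one-layered epithelia such as the gastric lining are known for the pair KRT8 and KRT18, joined by KRT19 and KRT7, whereas basal cells of stratified epithelia use KRT5 with KRT14 and differentiating epidermis uses KRT1 with KRT10. Other members are restricted to the inner root sheath or the shaft of the hair. The filaments are anchored at desmosomes and hemidesmosomes through plakins such as desmoplakin and plectin.

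All values are the authors' deposited log2 expression values, where 1 unit is a 2-fold difference in brightness. Brightness also depends on how well a probe set binds, so levels of different genes describe bright and dim probe sets and do not order the amounts of transcript. As a yardstick for dim probe sets, the 102 olfactory receptor genes on the array were used, since epithelial lines are not known for transcribing them. The 95th percentile of their means was 7.32, close to the median over all genes of 7.25. Of the 44 keratins, 8 lay above that yardstick, namely KRT18, KRT8, KRT19, KRT10, KRT80, KRT13, KRT7 and KRT23. Of all 19775 genes, 9696 lay above it. The keratins next to the line were KRT23 at 7.35 above it and KRT16 at 7.32 below it, and KRT16 differs from the line by less than its own spread. With the 90th percentile as the line 14 keratins lay above, and with the 99th percentile 5.

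The labelled cell type was checked against marker genes. The adhesion molecule gene EPCAM stood at 13.52 (mean of 4 arrays), and 10 of 11 epithelial markers, 3 of which are keratins, lay above the yardstick. Of 16 gastric markers measured 8 did, a share near that of all genes (9696 of 19775). Among them was TFF1, a secreted trefoil peptide, at 12.16. Below the yardstick were CLDN18, the gastric claudin, at 6.91 and GKN1, a secreted protein of surface mucous cells, at 4.49. Among markers of other cells, 3 of 15 fibroblast and endothelial genes and 1 of 13 leukocyte genes were above the line, namely COL1A1 at 8.63, TEK at 7.87, THY1 at 7.84 and the leukocyte gene CD53 at 8.01. Of 8 mesothelial and neuroendocrine markers 2 lay above it, MSLN at 9.03 and SYP at 7.36, and of 8 squamous or basal markers measured 2, the keratins KRT10 and KRT13. The leukocyte gene PTPRC stood at 5.02 and the fibroblast gene LUM at 3.76. The epithelial markers summed to 123.4 and 124.5 in untreated and 123.8 and 124.4 in LPS-treated arrays.

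RefSeq promoter windows, which run from 250 bases before to 50 bases after the annotated gene start, were held for 29 of the 44 keratins. The windows shown belong to KRT8 and KRT10, the 2 keratins with a window that were above the yardstick, and to KRT27 and KRT38, the keratins with the smallest p-values in each direction. They are given 5′ to 3′ on the gene's strand in GRCh38.p14, in lower case, with capitals for every match to TATAAA (the TATA box), GGGCGG (the GC box), CCAAT (the CCAAT box) or TGANTCA (the AP-1 motif), on either strand.
KRT8, chr12:52926420-52926719, minus strand: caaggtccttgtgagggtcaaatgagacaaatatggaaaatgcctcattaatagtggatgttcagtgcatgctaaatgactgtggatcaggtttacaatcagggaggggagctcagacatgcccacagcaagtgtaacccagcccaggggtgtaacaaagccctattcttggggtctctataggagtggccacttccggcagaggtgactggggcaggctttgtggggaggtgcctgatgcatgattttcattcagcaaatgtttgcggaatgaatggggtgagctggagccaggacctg
KRT10, chr17:40822565-40822864, minus strand: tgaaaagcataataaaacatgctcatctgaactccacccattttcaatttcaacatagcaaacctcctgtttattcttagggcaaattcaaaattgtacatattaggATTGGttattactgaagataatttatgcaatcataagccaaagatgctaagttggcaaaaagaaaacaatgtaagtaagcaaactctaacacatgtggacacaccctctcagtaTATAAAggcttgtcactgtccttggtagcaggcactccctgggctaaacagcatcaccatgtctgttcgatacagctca
KRT27, chr17:40782501-40782800, minus strand: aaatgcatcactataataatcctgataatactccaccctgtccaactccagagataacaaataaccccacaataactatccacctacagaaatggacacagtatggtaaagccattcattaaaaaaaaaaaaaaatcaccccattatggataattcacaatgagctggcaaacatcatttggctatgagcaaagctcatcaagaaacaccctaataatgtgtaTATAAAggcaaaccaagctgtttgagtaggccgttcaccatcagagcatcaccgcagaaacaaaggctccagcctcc
KRT38, chr17:41440934-41441233, minus strand: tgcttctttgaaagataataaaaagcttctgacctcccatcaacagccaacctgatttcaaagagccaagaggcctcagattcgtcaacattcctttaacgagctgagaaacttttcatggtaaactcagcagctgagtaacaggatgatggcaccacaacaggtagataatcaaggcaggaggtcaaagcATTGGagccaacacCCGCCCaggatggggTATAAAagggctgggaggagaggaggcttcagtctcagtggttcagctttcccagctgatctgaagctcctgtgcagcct
The TATA box match began at position -29 from the annotated start in KRT10, -27 in KRT27 and -30 in KRT38, and the KRT8 window held none of the 4 motifs. The match in KRT10 and that in KRT27 lay at nearly the same distance. Only 2 keratins above the yardstick had a window, and whether a match goes with brightness was not tested. Over the 29 keratin windows TATAAA was found in 15 (51.7%), against 11.5% of all 35116 windows of that length, which include noncoding genes. GGGCGG was found in 6 (20.7%, against 45.0%), CCAAT in 13 (44.8%, against 34.6%) and TGANTCA in 0 (against 7.71%). Neighbouring keratin genes arose by duplication, so the windows are not independent, and a match is a description of letters only. Which start site AGS cells use was not measured.

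The simple epithelial keratins held the brightest probe sets. KRT18, the type I chain of the simple epithelial pair, stood at 14.37 and 14.39 on the untreated and 14.40 and 14.45 on the LPS arrays. These values lie near the top of the scale, where the brightest probe set of each array was at 14.77 to 14.83. KRT8, its type II partner, stood at 13.34 and 13.52 without and 13.21 and 13.52 with LPS. KRT19, a short type I keratin almost without a tail domain, stood at 12.46 and 12.55 and at 12.43 and 12.60 on the brighter of its probe sets. The other KRT19 probe set lay below the yardstick at a mean of 5.91, with a difference of LPS minus untreated of 0.02. For KRT8 and KRT19 the arrays of the 2 groups overlapped, and the array numbered 2 was the higher one in both groups. The 2 LPS arrays of KRT18 lay above the 2 untreated ones, by 0.01 at the closest.

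The difference of LPS minus untreated was 0.04 ± 0.06 (SE) for KRT18, -0.07 ± 0.11 for KRT8 and 0.01 ± 0.09 for KRT19 on the log2 scale. None passed the test (limma over all genes, adjusted p = 1 for each). As ratios of treated to untreated, the 95% intervals ran from 0.94 to 1.13 for KRT18, from 0.79 to 1.14 for KRT8 and from 0.87 to 1.16 for KRT19. A 1.2-fold change in brightness in either direction therefore lies outside the interval of KRT18, while for KRT8 a decrease of that size does not. The only probe sets of KRT8 and KRT18 are of the _x_at kind, which can share signal with related sequences, and both genes are known for many processed pseudogenes. How close KRT18 came to saturation was not tested.

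The other simple epithelial keratins were dimmer. KRT7, a type II keratin of ducts and glands, stood at 7.57 and 7.80 without and 7.74 and 8.12 with LPS, on the brightest of its 4 probe sets. Its groups overlapped, and the difference of 0.25 ± 0.16 (SE), a ratio of 1.19 with an interval of 0.91 to 1.54, did not pass (limma, adjusted p = 1). The other KRT7 probe sets differed by -0.13, -0.13 and 0.03, at mean levels of 6.97, 5.18 and 4.18, so the probe sets of this gene disagree in sign. KRT23, a type I keratin, stood at 7.36 and 7.21 without and 7.37 and 7.47 with LPS, a difference of 0.13 ± 0.12 that did not pass (adjusted p = 1). KRT20, the type I keratin of intestinal and gastric surface cells, was the dimmest of all 44 at 4.10 and 4.27 without and 4.12 and 4.23 with LPS. Over the 6 genes of this class the median difference was 0.03.

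Of the basal, stratified and stress keratins, 5 were measured and 1 lay above the yardstick. That was KRT80, a type II keratin, at 10.01 and 10.21 without and 9.87 and 10.14 with LPS, a difference of -0.11 ± 0.13 (SE) with overlapping arrays (limma, adjusted p = 1). The basal pair was dim: KRT5 stood at 6.29 and 6.38 without and 6.21 and 6.50 with LPS. KRT14, its type I partner, stood at 6.55 and 6.73 without and 6.22 and 6.50 with LPS. Both LPS arrays of KRT14 lay below both untreated ones, and the difference of -0.28 ± 0.14, a ratio of 0.82 with an interval of 0.66 to 1.03, did not pass (unadjusted p = 0.0807, adjusted p = 1). KRT16, a stress keratin, had a mean of 7.32 and KRT15, a keratin of basal progenitors, of 6.74.

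Among the 13 keratins of differentiated epidermis and mucosa, KRT10 and KRT13 lay above the yardstick. KRT10, the type I keratin of suprabasal epidermis, stood at 11.87 and 11.78 without and 11.90 and 11.75 with LPS. Its difference was 0.00 ± 0.09 (SE), with a ratio of 1.00 and an interval of 0.86 to 1.16 (limma, adjusted p = 1), and its other 2 probe sets, of similar brightness, differed by 0.13 and 0.14. KRT1, the type II chain that KRT10 pairs with in skin, was dim at 5.73 and 5.98 without and 5.80 and 5.78 with LPS. The late epidermal type II gene KRT2 was likewise dim at a mean of 5.19. KRT13, the type I keratin of stratified mucosa, stood at 7.83 and 8.10 without and 7.82 and 8.11 with LPS, a difference of 0.00 ± 0.15. Its mucosal partner KRT4 stood at 5.57 and 5.64 without and 5.32 and 5.57 with LPS, with a difference of -0.16 ± 0.12, and the difference on its second probe set was 0.19, opposite in sign. Every probe set of KRT10 and KRT13 ends in _x_at or _s_at. The remaining members had means from 4.56 (KRT12, of the cornea) to 7.19 (KRT9, of palms and soles).

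The means of the hair keratins were all below the yardstick: 0 of 7 measured inner root sheath genes, with means from 4.53 to 6.95, and 0 of 12 hair shaft genes, with means from 4.43 to 7.01. KRT27, an inner root sheath gene of type I, stood at 4.70 and 4.70 without and 4.29 and 4.41 with LPS. Its groups did not overlap, and the difference of -0.35 ± 0.09 (SE), a ratio of 0.79 with an interval of 0.68 to 0.91, was the largest of the 44. It had an unadjusted p of 0.00634 and did not pass over all genes (limma, adjusted p = 1). KRT38, a hair shaft gene of type I, stood at 6.67 and 6.72 without and 6.92 and 6.98 with LPS. It had the smallest p of the keratins on the higher side (unadjusted p = 0.0574, adjusted p = 1), with a ratio of 1.19 and an interval of 0.99 to 1.43. KRT31, another shaft keratin, differed by 0.17 ± 0.10 and KRT74, of the inner root sheath, by 0.18 ± 0.11, both with arrays that did not overlap. The second probe set of KRT74, at a mean of 6.10, differed by -0.05, and the mean of its probe sets by 0.0642. At such brightness a probe set may read background, and whether these genes are transcribed in AGS cells was not measured.

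**Figure D1:**
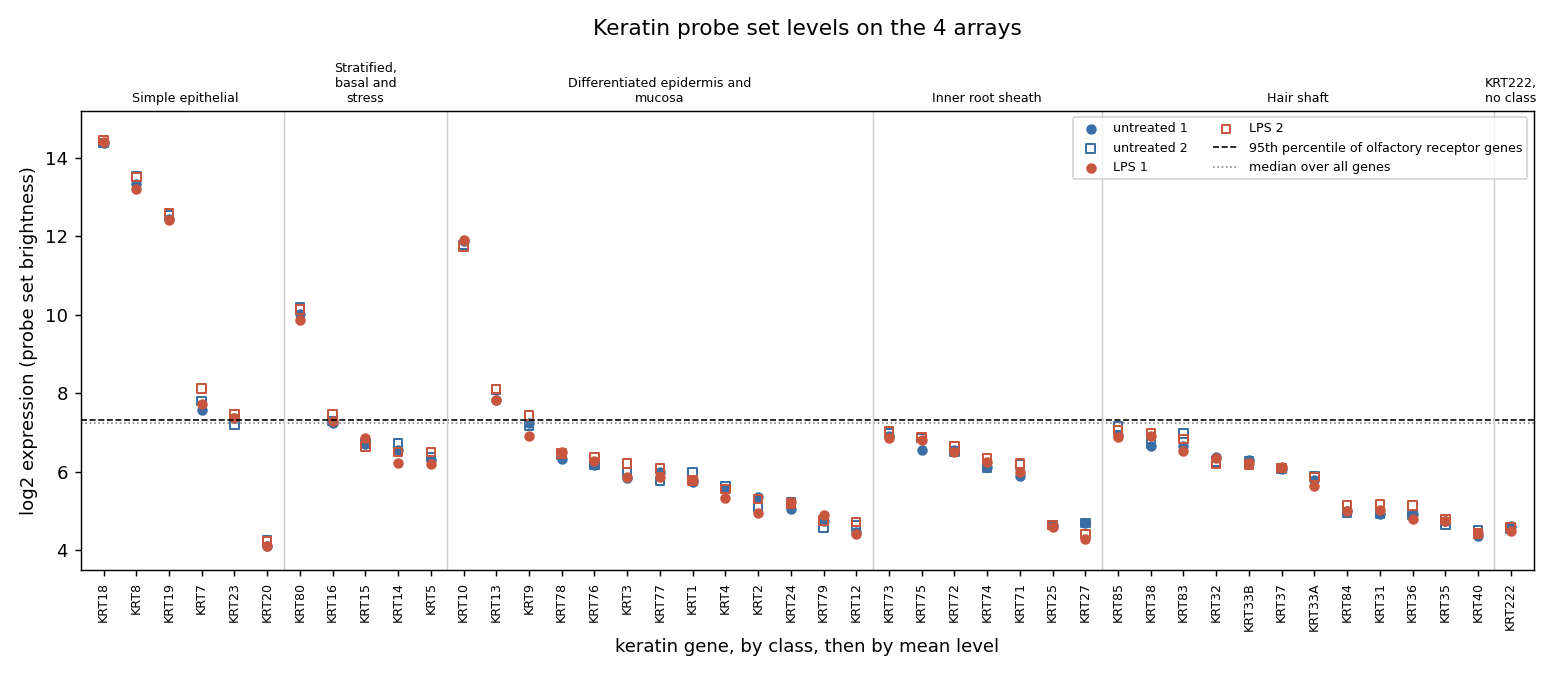
Each column is a keratin gene and each point the log2 expression of its brightest probe set on 1 array (circles for arrays numbered 1, squares for arrays numbered 2, blue for untreated, red for LPS). Genes are grouped by class, the dashed line is the 95th percentile of 102 olfactory receptor genes (7.32) and the dotted line the median over all genes (7.25). KRT18, KRT8, KRT19, KRT10 and KRT80 stand between 9.87 and 14.45 on every array, and the hair keratins lie below the dashed line on every array.

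The keratin genes sit in 2 clusters, with type II genes and KRT18 on chromosome 12 and the other type I genes on chromosome 17. In the RefSeq gene order, the 4 chromosome 12 keratins above the yardstick were the first (KRT80) and second (KRT7) and the last but one (KRT8) and last (KRT18) of the 27 genes there. The 17 measured genes between them were all below it, at means from 4.74 to 7.01. On chromosome 17 the 4 genes above the line (KRT10, KRT23, KRT13 and KRT19) were scattered among 28 genes. KRT19 lay between KRT15 (6.74) and KRT9 (7.19), and KRT10 next to KRT12 (4.56). KRT8 and KRT18, which encode partner chains, stand next to each other in this order and had the brightest probe set of each type. By type, 5 of 23 type I and 3 of 20 type II genes lay above the yardstick, and KRT222, which is in neither, stood at 4.56.

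**Figure D2:**
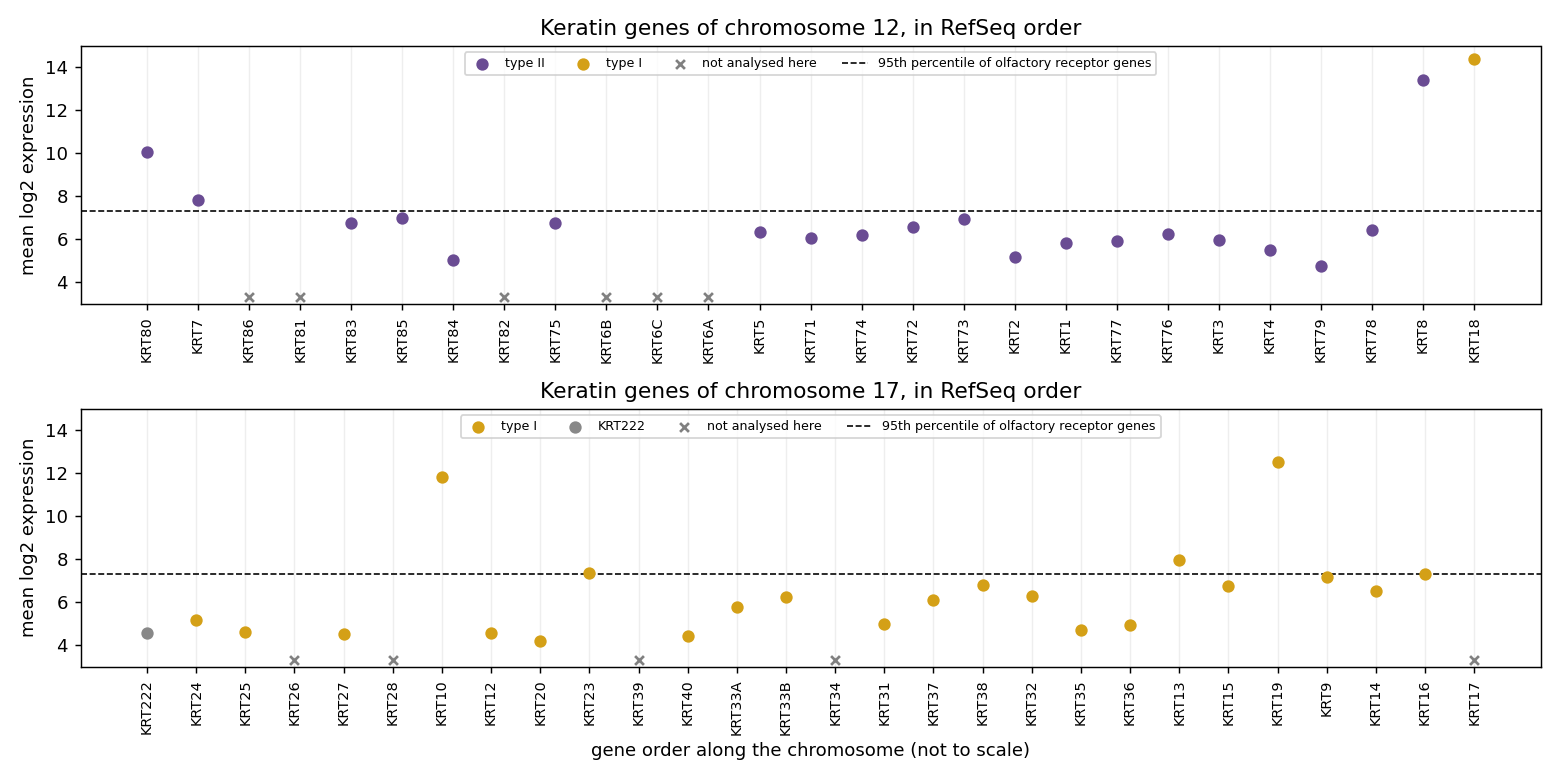
Mean log2 expression over the 4 arrays of each keratin gene (y axis), placed in its order along chromosome 12 (upper panel) and 17 (lower panel), not to scale. Purple points are type II, yellow points type I, grey crosses genes not analysed here, and the dashed line is the yardstick of 7.32. The chromosome 12 genes above the line stand at both ends of the row. Those of chromosome 17 are single points whose measured neighbours lie below the line, and KRT23 is only just above it. KRT86 next to KRT7, KRT28 next to KRT10 and KRT39 next to KRT23 were not analysed.

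No keratin passed the comparison of LPS with untreated cells. The count past an adjusted p of 0.05 was 0 of 44, where 0% of all 19775 genes passed (limma, smallest adjusted p over all genes 0.299). At an unadjusted p under 0.05, 0 keratins were higher, against 1.26% of all genes, and 1, KRT27, was lower (2.27%), against 1.57%. The arrays did not overlap with LPS higher for 10 keratins (22.7%), against 17.9% of all genes, and with LPS lower for 4 (9.09%), against 11.7%. The 10 were KRT18, KRT23, KRT31, KRT35, KRT37, KRT38, KRT74, KRT76, KRT78 and KRT84, of which 2, KRT18 and KRT23, lay above the yardstick, and the 4 were KRT4, KRT14, KRT27 and KRT33B. These shares lie near those of all genes. With quantile normalization 4 keratins were higher without overlap, against 16.6% of all genes, and 5 were lower, against 13.6%. The keratin mean was 6.66 and 6.72 on the untreated and 6.63 and 6.77 on the LPS arrays, and that of all genes 7.60 and 7.62 and 7.60 and 7.65. LPS array 2 was thus highest on both, and its part in the higher count was not tested.

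The differences of the 44 genes ran from -0.35 to 0.26 with a median of 0.02, the same as over all genes (0.02), and 27 were above 0 and 17 below. A difference of 1.2-fold or more was seen for 2 keratins, KRT27 and KRT14, both lower, and of 1.5-fold for 0. Among the 8 keratins above the yardstick, 6 differences were above 0 and 2 below, and the median was 0.01. Leaving out LPS replicate 1 put the median over the 44 at 0.0834, and leaving out LPS replicate 2 put it at -0.0398. For the 5 brightest, the 95% intervals of the ratio lay between 0.75 and 1.16. The median half-width of the interval was 0.28 for keratins and 0.27 for all genes on the log2 scale. By type the median was 0.01 for the 23 type I and 0.06 for the 20 type II genes.

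**Figure D3:**
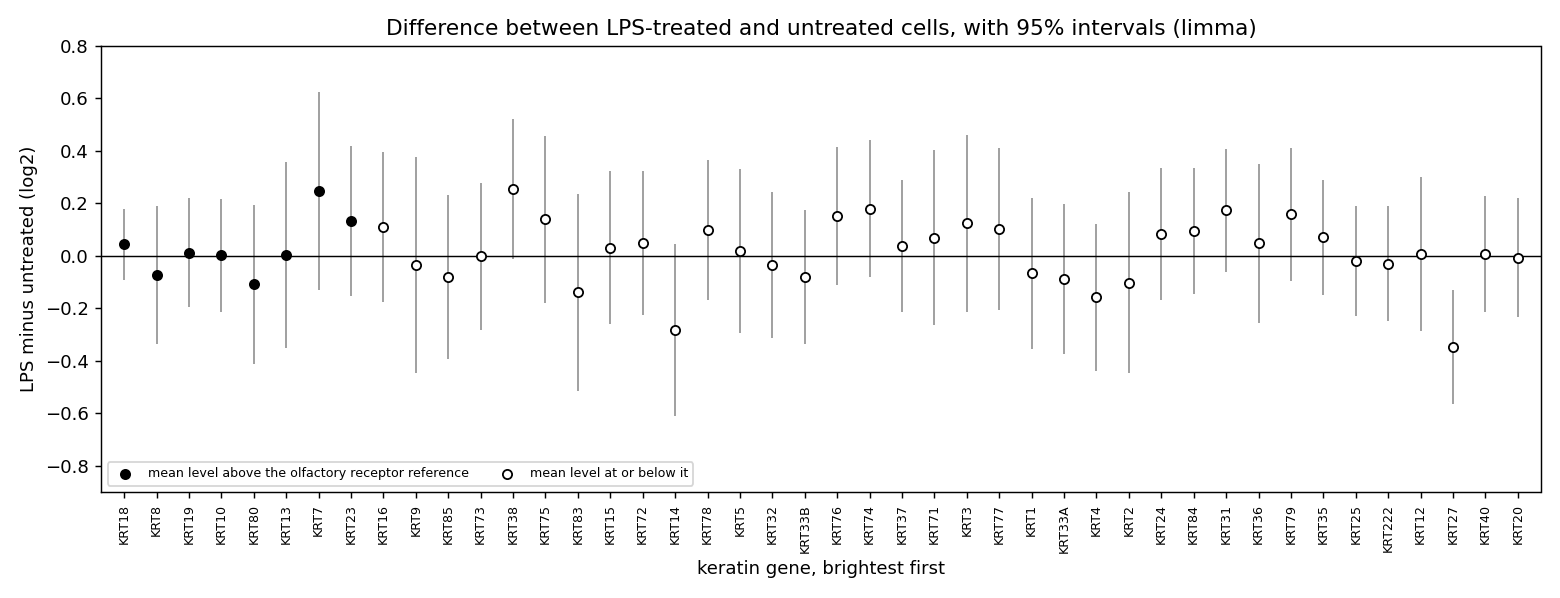
Difference of LPS-treated minus untreated cells on the log2 scale (y axis) for each keratin, from the brightest gene on the left to the dimmest on the right, with the 95% interval of the limma fit. Filled points lie above the yardstick of 7.32, open points at or below it. The interval includes 0 for every keratin but KRT27, which did not pass after adjustment.

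Of the genes that keratins work with, 0 members of any list below passed the adjusted threshold (limma), where 0 of all 19775 genes passed. Of the plakin, desmosome and hemidesmosome genes 22 were measured, and 0 had an unadjusted p under 0.05. At that threshold 1.26% of all genes were higher and 1.57% lower. The median of the 22 was -0.07, beside 0.02 over all genes. Of their differences 7 were above and 15 below 0, against 11171 above and 8604 below over all genes. DSP, encoding desmoplakin, which ties keratin to the desmosome, was bright at 13.36 and 13.20 without and 13.19 and 13.15 with LPS, a difference of -0.11 ± 0.08 (SE). The 2 LPS arrays lay below both untreated ones for DSP as for PKP2, a desmosomal plakophilin (-0.24 ± 0.11, unadjusted p = 0.0516), and DSG2, a desmosomal cadherin (-0.18 ± 0.10). Of the 22 genes, 5 were lower without overlap, against 2320 of all 19775 genes (11.7%). In the other direction 1 of the 22 was higher, against 3537 of 19775 (17.9%). ITGB4, the hemidesmosomal integrin chain, stood at 9.69 and 9.92 without and 9.96 and 10.17 with LPS, a difference of 0.26 ± 0.13. EPPK1, encoding the plakin epiplakin, had overlapping arrays and -0.23 ± 0.14.

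Among 11 chaperones, adaptors and caspases that bind or cut keratins the median was -0.01, and the differences ran from -0.09 to 0.13. TRADD, a death receptor adaptor that binds KRT18, was at 0.13 ± 0.11 (SE) and the co-chaperone gene DNAJB6 at -0.07 ± 0.10. Of 15 genes for other intermediate filament proteins the median was 0.03, with 2 higher and 0 lower at an unadjusted p under 0.05, a threshold at which 1.26% of all genes were higher and 1.57% lower. LMNA, the A-type lamin of the nuclear envelope, stood at 11.67 and 11.87 without and 12.04 and 11.98 with LPS, a difference of 0.25 ± 0.10 (unadjusted p = 0.0348, adjusted p = 1). LMNB1, a B-type lamin, differed by -0.26 ± 0.13. The muscle filament gene DES was dim, at a mean below the yardstick, with 0.33 ± 0.13. VIM, the mesenchymal filament gene, stood at 7.84 and 7.94 without and 7.75 and 7.85 with LPS.

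Epithelial transcription factors, listed together with the splicing regulator ESRP1, had a median of -0.03 over 13 genes and 0 with an unadjusted p under 0.05. Over all genes 1.26% were higher and 1.57% lower at that threshold. KLF5, a zinc finger factor of epithelial progenitors, stood at 12.50 and 12.32 without and 12.28 and 12.15 with LPS, a difference of -0.19 ± 0.09 (SE). EHF, dim at a mean of 5.48, had the largest moderated statistic of the list and differed by 0.24 ± 0.11 (limma, unadjusted p = 0.0602). Of the 13 differences 4 were above and 9 below 0. Of the cornified envelope and late differentiation genes 19 were measured and 3 (SPRR2B, SPRR3 and SPRR1A) lay above the yardstick. The probe sets of these 3 are all of the _x_at kind, which can share signal with related sequences. The median difference of the 19 was 0.04. SPRR2B, a small proline-rich envelope precursor, stood at 11.69 and 11.67 without and 11.84 and 11.97 with LPS, a difference of 0.22 ± 0.09 (unadjusted p = 0.0341, adjusted p = 1). KLK7, a protease of shedding skin cells, was dim and differed by 0.32 ± 0.13 (unadjusted p = 0.0414, adjusted p = 1). The envelope genes IVL and FLG, which mark terminal keratinocyte differentiation, had means of 5.91 and 3.73. The 33 hair keratin-associated protein genes had a median of 0.02, with 2 (KRTAP5-8 and KRTAP10-11) above the yardstick. Of the 33, 0 had an unadjusted p under 0.05, against the same 1.26% and 1.57% of all genes. The KRTAP5-8 probe set is also of the _x_at kind. Of the 33 differences 20 were above and 13 below 0. Without overlap 9 of the 33 were higher, against 3537 of all 19775 genes (17.9%), and 0 were lower, against 2320 (11.7%).

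**Figure D4:**
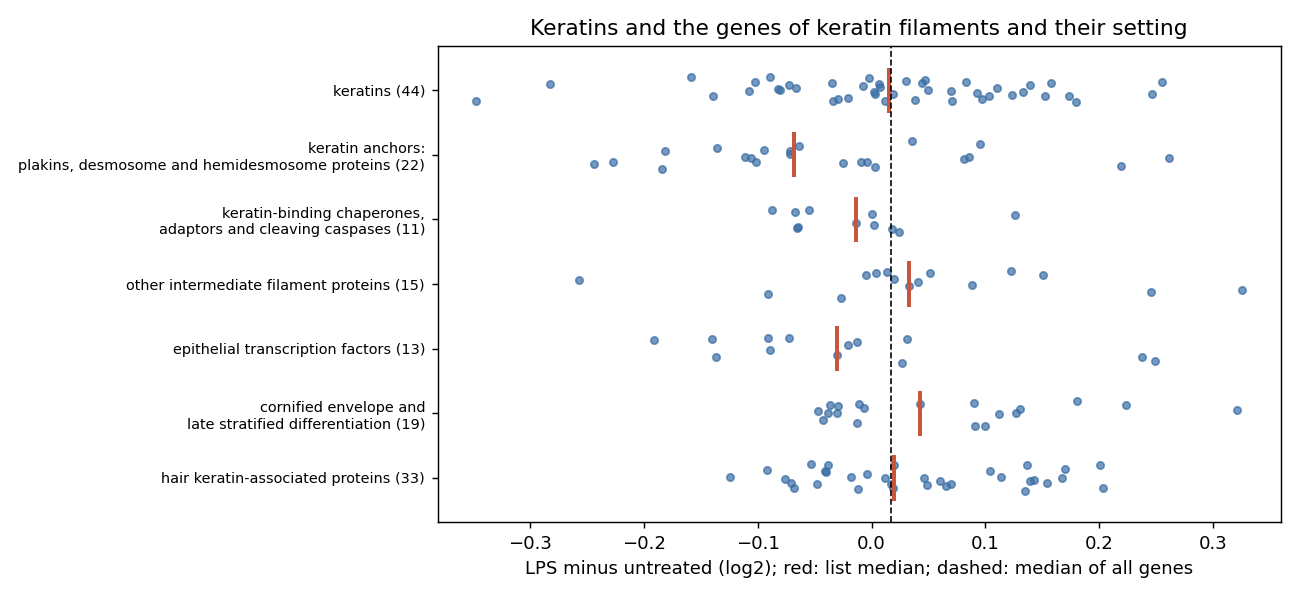
Each blue point is the difference of LPS-treated minus untreated cells (log2, x axis) for 1 gene, with a row for the keratins and for each list of related genes and the number of genes measured in brackets. Red bars are row medians, from -0.07 for the anchors to 0.04 for the cornified envelope genes, and the dashed line is the median of all genes (0.02). Every row spreads to both sides of 0, and points are shifted vertically at random for legibility.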

How the data were processed

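Gene expression was measured in 4 array samples of AGS cells, 2 untreated and 2 treated with LPS, grouped by their titles. The authors deposited log2 expression values for 54675 probe sets. Per the submitters' processing notes, which name MAS5 and RMA, the tools are known but their roles, versions and settings are not given in the sources used here. The values had the form of RMA output, which compresses differences of dim probe sets. They were used without further normalization. Of all probe sets 41097 had 1 symbol in the platform annotation, 1801 had several and 11777 none; 41091 entered after control probe sets were left out. The sample labels do not say whether replicates came from separate cultures, though the design text speaks of 2 independent experiments. The main fit did not pair arrays by number. Its p-values measure the spread between these arrays, and their number limits the precision. No detection calls were used.

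LPS minus untreated was fitted over all 19775 genes by limma 3.58.1 (R 4.3.3; lmFit, then eBayes whose prior follows intensity; two-sided, without covariates), with Benjamini-Hochberg adjustment and a threshold of 0.05. Standard errors and 95% intervals come from that fit. An exact permutation test of 2 against 2 arrays cannot give a p under 0.33. The script was tested on simulated data for this comparison, in sets of 19775 genes of which few were changed. Of the 2-fold changes 86.7% were called, of the 1.5-fold changes 19.2% and of the unchanged genes 0.0255%. The simulated arrays were drawn independently, whereas deviations of same-numbered arrays correlated in these data, so the shares may not hold here. Differences are given for keratins above the olfactory receptor yardstick and for the 3 with the smallest p in each direction. Up to 4 genes of each list were named by the moderated statistic, FLG among them by its mean only. VIM, DSP, IVL and the marker genes were added after their values were seen. The keratins and lists were chosen with earlier results of these data known. Promoter windows were from RefSeq (GRCh38.p14). As alternatives, arrays were quantile normalized, genes under the median level were dropped, and there were averaged probe sets, probe sets ending in _x_at or _s_at removed, a prior without trend, a replicate block, each probe set as its own test, other yardstick percentiles and each array left out. Figures were drawn with matplotlib 3.10.9.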

Additional observations from a re-analysis of the deposited data

How the results depend on the processing

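The count of keratins past the adjusted threshold was 0 under all 11 alternatives, including the replicate number as a block (0 keratins and 0 of all genes). Over all genes it was 0 except when an array was left out, with 0 to 16 calls; the 16 (2 higher, 14 lower) came without LPS replicate 2, where the lone LPS array is assumed to vary like the others. The median keratin difference moved by less than the typical SD within groups of 0.10 under each setting tried, but its sign turned, from 0.0834 without LPS replicate 1 to -0.0398 without LPS replicate 2. The count of keratins without overlap, 10 higher and 4 lower, was 4 higher with quantile normalization, 2 higher and 0 lower among the 9 keratins at or above median expression, and 16 higher and 11 lower when arrays were compared within replicate numbers (replicate block). With an array left out, which loosens the rule, it was 12 to 24 higher (24 without LPS replicate 1) and 7 to 20 lower (20 without LPS replicate 2). Comparing within replicate numbers is a looser rule too. Apart from quantile normalization, the share of all genes under these alternatives was not computed. The counts therefore cannot be read as results about keratins. The count above the yardstick was 14 with the 90th and 5 with the 99th percentile. Without _x_at and _s_at probe sets 8 keratins had no value. Among them were KRT18, KRT8, KRT10, KRT13 and KRT23, which lay above the yardstick in the main setting. Of the 36 keratins left, 7 lay above a yardstick computed anew without such probe sets, so these were partly other genes.

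Of 14 keratins named with a test, 8 kept their sign under each alternative that gave a value. With an array left out, KRT8 ran from -0.227 to 0.082, KRT19 from -0.0767 to 0.100, KRT10 from -0.0765 to 0.0798, KRT80 from -0.245 to 0.0292 and KRT13 from -0.14 to 0.15. With the mean of all probe sets KRT4 turned to 0.0182. The cause was not tested. The labels do not tie replicate numbers to a shared experiment; the deviations of arrays with the same number correlated at r = 0.439 across genes, which are not independent replicates.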
